A study of Saccharomyces cerevisiae with 24 samples.

Results

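The small-subunit processome is the large RNA-protein particle that forms on the nascent ribosomal RNA transcript in the nucleolus and from which the 40S ribosomal subunit is released. Its factors bind the transcript stepwise, the UtpA and UtpB subcomplexes and the U3 snoRNP among the first, and they fold, modify and cleave the precursor. In budding yeast these genes belong to the ribosome biogenesis regulon, which is known to follow growth rate and to be turned down under stress. The 42 genes described here were taken by locus tag from a list of 40S assembly genes that leaves out chromosomes VI and XIII. The rule uses no measured value, but it was written with earlier results of these data known, and those 2 chromosomes are ones whose median level was raised in N2 and Ca libraries. All 42 were found in both deposited tables, among 5843 rows of the haploid and 5730 of the diploid table. They lie on 12 chromosomes, and in the R64 annotation none of them has an intron in its coding sequence or overlaps another annotated gene.

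Poly(A) RNA was sequenced from 8 Saccharomyces cerevisiae strains that carry different actins, with 3 libraries each. Of the 6 haploid strains ScNI was the wild type, and the others were Ca, N2, Sc[At], Sc[Sp] and Sc[Ca]. Sc/Sc was the diploid wild type and N2/Ca the other diploid. All were in log phase in rich glucose medium (YPD) at 25 °C, without any further treatment. The strain names are used as labels, because the labels do not spell out the alleles or the parental background behind them. ACT1, the yeast actin gene, was at 18397 to 18549 normalised counts in ScNI, at 9.43 to 173 in the Sc[Ca], Sc[Sp] and Sc[At] libraries, and at 8638 to 15314 in N2 and Ca.

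The haploid libraries held 10228523 to 15403081 reads and the diploid ones 12128284 to 15134814. The fewest reads of any of the 42 genes in a library were 95, for DHR2 in Sc[Sp] replicate 2, so all 42 passed the filter of a mean of at least 10 normalised counts. Replicate 2 of each haploid strain expressed the MATalpha genes, and each strain had 1 such library. STE3, one of these genes, read 6546 to 9169 normalised counts there and between 34.8 and 202 in replicates 1 and 3. No label says whether replicates were separate cultures or clones, so each p-value measures the spread between these libraries. The 3 ScNI libraries are the reference of 5 comparisons, which are therefore not independent of each other.

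Most of the 42 genes were lower in Sc[Sp] and Sc[Ca] libraries and higher in most N2 and Ca libraries than in the wild type. Each library was summarised by the median of the 42 log2 differences from the wild-type mean of its table, on the log2(value + 1) scale. That median was −0.93, −0.94 and −0.81 in Sc[Sp] replicates 1, 2 and 3, and −0.42, −0.42 and −0.32 in those of Sc[Ca]. In ScNI it was −0.03, −0.07 and 0.09. It was 0.03, −0.29 and 0.57 in Sc[At], 0.06, 1.05 and 1.04 in N2, and 1.11, 0.98 and 0.42 in Ca. The libraries of Sc[Sp], Sc[Ca] and ScNI thus formed 3 ranges that did not overlap, and all 3 Ca libraries lay above all 3 of ScNI. The range of Sc[At] overlapped those of ScNI, N2 and Ca. N2 overlapped Ca, and N2 replicate 1 lay within the range of ScNI. The SD of the library medians was 0.44 in Sc[At], 0.57 in N2 and 0.37 in Ca, against 0.05 to 0.09 in ScNI, Sc[Ca] and Sc[Sp]. In bulk RNA a lower level in every cell and a smaller share of expressing cells cannot be told apart. Together the 42 genes made up 0.647% ± 0.0364 (SD, n = 3) of the normalised counts in ScNI, 0.397% ± 0.0158 in Sc[Sp], 0.511% ± 0.0114 in Sc[Ca] and 1.01% ± 0.146 in Ca.

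**Figure D1:**
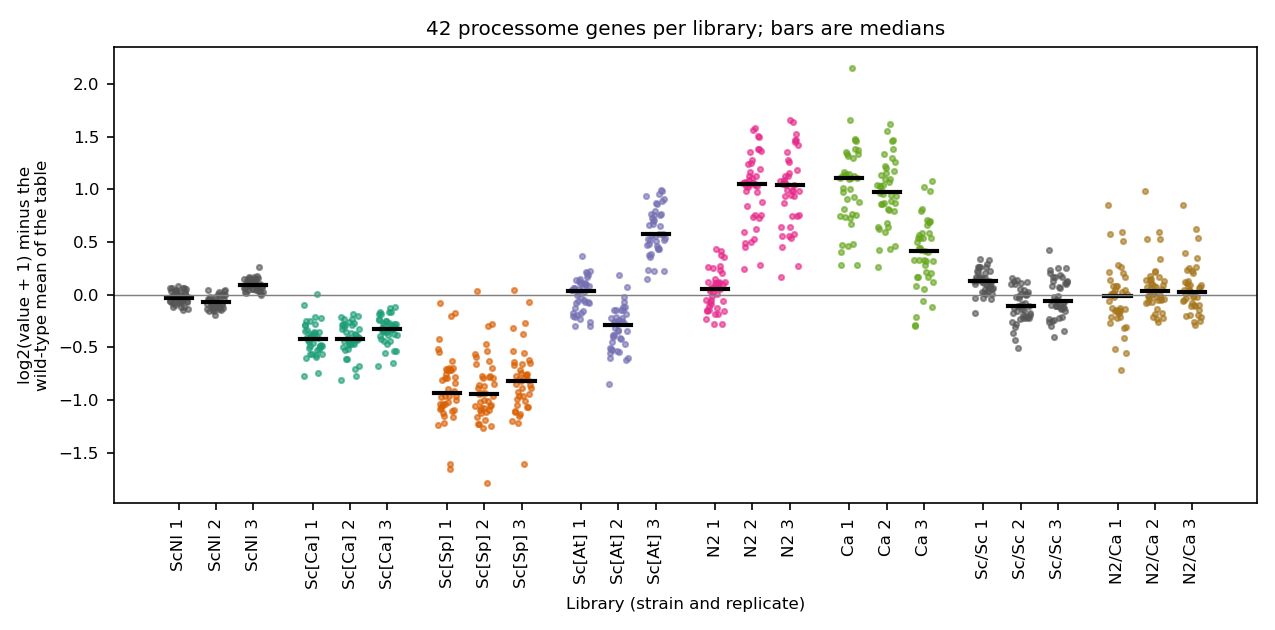
Each point is 1 of the 42 genes in 1 library, as log2(value + 1) minus the mean of the wild type of the same table, with strains along the x axis and a black bar at the median. The Sc[Sp] medians lie between −0.94 and −0.81, and N2 replicate 1 (0.06) lies apart from N2 replicates 2 and 3 (1.05 and 1.04).

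Across the 18 haploid libraries any 2 of the 42 genes had a median Pearson correlation of 0.97 on the log2 scale (861 pairs, lowest 0.69). The median was 0.93 (lowest 0.71) after strain means were removed. That value rests mainly on Sc[At], N2 and Ca, whose library medians had SDs of 0.37 to 0.57, against 0.05 to 0.09 in ScNI, Sc[Ca] and Sc[Sp]. These correlations are a description, as all pairs share the same libraries and normalisation, and pairs of other genes were not correlated. The profile least like the median of the other members was that of SNU13 (YEL026W), with r = 0.75. SNU13 encodes a box C/D snoRNP protein that is also part of the spliceosomal U4 snRNP. It was followed by KRR1 (YCL059C) at 0.79, NOP56 (YLR197W) at 0.88 and NOP1 (YDL014W) at 0.92. All 5 of the genes with the lowest r, NOP58 being the fifth, were also among the 6 with the highest level per kilobase of gene in ScNI (2597 to 10321 normalised counts per kb, against 157 to 1394 in the other 36).

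**Figure D2:**
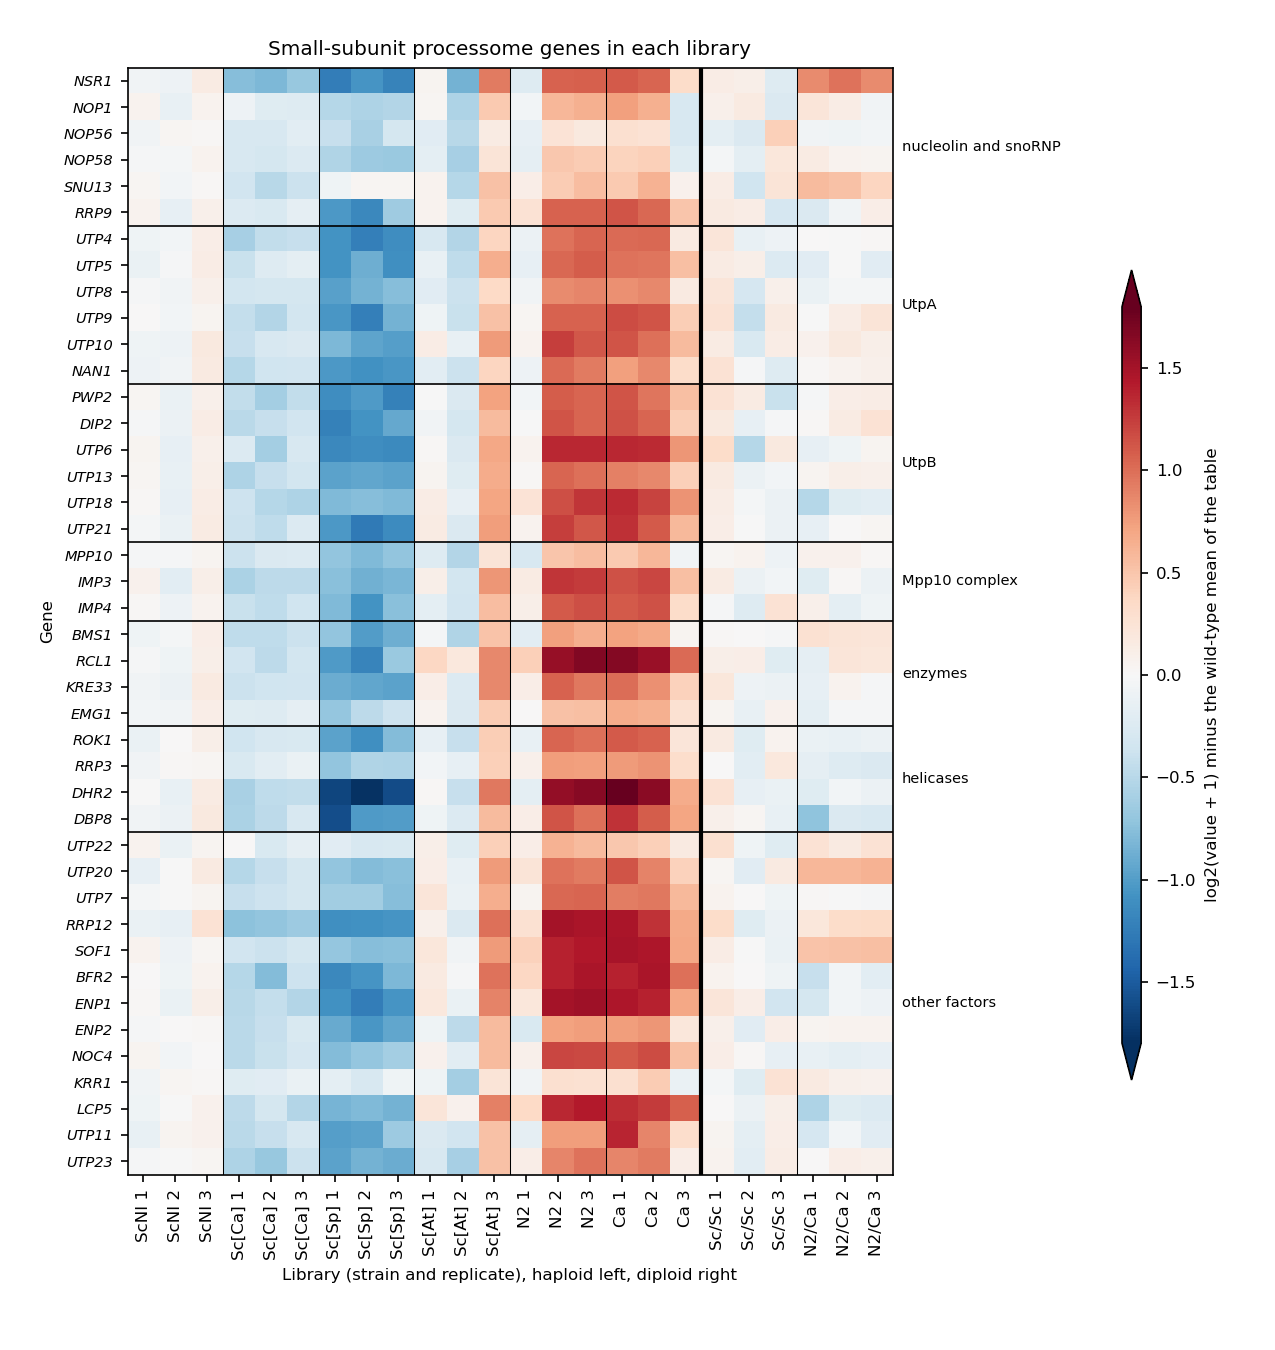
Colour gives log2(value + 1) minus the wild-type mean of the same table for each of the 42 genes (rows, grouped by role) in each of the 24 libraries (columns). Blue columns are the Sc[Ca] and Sc[Sp] libraries, red columns N2 replicates 2 and 3, Ca and Sc[At] replicate 3, and SNU13, KRR1 and NOP56 are the palest rows.

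The promoters of the 42 genes share sequence that the choice of genes did not use. Promoter windows of 300 bases, 250 before and 50 after the start codon, were read from the R64 genome of RefSeq and searched on both strands for the cores of 2 motifs known from yeast ribosome biogenesis genes. The PAC core, which reads GATGAG on one strand and therefore CTCATC on its complement, was present in 40 of 42 windows (95.2%) and in 20.4% of the windows of 6001 protein-coding genes. The RRPE core, which reads AAAAATTT on one strand and AAATTTTT on its complement, was present in 34 of 42 (81.0%) and in 14.2% of all windows. Both occurred in 34 of 42 against 5.63% of all windows. The 2 cores cannot overlap each other, but matches of 1 core can overlap on the 2 strands or in tandem. PAC matches had a median position 109 bases and RRPE matches 136 bases before the start codon. EMG1 and UTP22 held neither core, and RRP9, UTP13, MPP10, DHR2, UTP7 and ENP2 held PAC alone. A match is a run of letters, and binding was not measured. The windows of 8 genes follow because their values in every library are given afterwards, NSR1 as the first of the list and the others as the gene of each role group with the smallest F test p-value. SNU13 and KRR1 were added after their values were seen, as the 2 profiles least like the rest. Capitals mark PAC and RRPE matches, overlapping matches run together, and all read 5′ to 3′ on the gene's strand.
NSR1 (chrVII:807607-807906, minus strand): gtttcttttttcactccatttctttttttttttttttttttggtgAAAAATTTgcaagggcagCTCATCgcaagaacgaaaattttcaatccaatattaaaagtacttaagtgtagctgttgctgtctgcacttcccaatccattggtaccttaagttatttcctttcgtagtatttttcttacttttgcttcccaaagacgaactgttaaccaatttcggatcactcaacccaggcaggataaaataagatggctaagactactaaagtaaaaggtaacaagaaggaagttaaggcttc
RRP9 (chrXVI:802109-802408, plus strand): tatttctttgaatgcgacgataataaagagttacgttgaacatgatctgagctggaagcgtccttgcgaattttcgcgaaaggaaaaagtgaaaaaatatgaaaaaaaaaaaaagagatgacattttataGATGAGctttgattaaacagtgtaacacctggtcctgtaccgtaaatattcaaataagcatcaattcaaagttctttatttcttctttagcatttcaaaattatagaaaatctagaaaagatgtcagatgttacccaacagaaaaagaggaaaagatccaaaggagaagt
UTP9 (chrVIII:491681-491980, plus strand): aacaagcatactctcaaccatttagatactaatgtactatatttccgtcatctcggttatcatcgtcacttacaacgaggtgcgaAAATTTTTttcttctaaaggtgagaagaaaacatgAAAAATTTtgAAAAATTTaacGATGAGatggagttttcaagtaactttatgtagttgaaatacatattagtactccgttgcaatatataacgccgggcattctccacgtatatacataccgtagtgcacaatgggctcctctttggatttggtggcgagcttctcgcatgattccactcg
UTP18 (chrX:312657-312956, minus strand): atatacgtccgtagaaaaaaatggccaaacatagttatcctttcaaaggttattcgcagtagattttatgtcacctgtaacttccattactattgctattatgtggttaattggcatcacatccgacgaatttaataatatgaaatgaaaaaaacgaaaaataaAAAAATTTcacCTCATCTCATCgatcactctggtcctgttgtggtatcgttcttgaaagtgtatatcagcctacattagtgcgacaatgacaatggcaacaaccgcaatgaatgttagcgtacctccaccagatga
IMP3 (chrVIII:393284-393583, plus strand): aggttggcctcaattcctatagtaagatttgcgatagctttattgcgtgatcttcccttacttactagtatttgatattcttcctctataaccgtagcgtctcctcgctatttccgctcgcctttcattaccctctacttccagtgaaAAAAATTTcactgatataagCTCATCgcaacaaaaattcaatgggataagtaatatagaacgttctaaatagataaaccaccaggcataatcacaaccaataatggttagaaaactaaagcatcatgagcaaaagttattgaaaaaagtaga
RCL1 (chrXV:307688-307987, plus strand): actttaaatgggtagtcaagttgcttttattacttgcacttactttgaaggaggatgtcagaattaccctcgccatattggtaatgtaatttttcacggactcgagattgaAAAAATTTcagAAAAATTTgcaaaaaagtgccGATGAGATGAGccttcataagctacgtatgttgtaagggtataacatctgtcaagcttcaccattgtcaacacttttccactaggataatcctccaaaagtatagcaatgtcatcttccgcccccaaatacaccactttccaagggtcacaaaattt
DBP8 (chrVIII:441931-442230, plus strand): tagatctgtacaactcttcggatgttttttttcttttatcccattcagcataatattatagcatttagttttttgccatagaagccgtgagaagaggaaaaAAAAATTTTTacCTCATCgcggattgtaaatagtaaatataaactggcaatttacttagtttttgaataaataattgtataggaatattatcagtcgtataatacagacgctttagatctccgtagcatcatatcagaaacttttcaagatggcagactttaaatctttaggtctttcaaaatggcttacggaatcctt
LCP5 (chrV:414231-414530, plus strand): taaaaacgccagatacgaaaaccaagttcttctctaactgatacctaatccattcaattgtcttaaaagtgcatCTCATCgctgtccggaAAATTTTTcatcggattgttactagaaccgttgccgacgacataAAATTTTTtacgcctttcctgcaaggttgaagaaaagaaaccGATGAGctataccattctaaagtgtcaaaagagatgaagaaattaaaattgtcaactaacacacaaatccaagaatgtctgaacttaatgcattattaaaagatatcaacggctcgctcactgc
SNU13 (chrV:101693-101992, plus strand): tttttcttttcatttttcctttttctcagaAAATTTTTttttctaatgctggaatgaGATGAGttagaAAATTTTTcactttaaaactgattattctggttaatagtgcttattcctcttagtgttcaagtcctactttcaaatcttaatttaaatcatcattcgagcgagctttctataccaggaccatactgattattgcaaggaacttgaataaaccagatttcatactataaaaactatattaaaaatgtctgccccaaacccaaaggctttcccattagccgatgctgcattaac
KRR1 (chrIII:23330-23629, minus strand): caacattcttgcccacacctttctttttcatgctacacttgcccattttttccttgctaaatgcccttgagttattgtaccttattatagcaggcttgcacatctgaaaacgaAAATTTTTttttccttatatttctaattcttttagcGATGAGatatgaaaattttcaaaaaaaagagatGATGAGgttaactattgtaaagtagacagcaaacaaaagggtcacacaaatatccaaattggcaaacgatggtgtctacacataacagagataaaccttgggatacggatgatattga

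In these windows RRPE and PAC lie within a few bases of each other in UTP9, UTP18 and DBP8. RCL1 and UTP18 hold tandem overlapping PAC cores, and LCP5 holds 2 PAC and 2 RRPE matches. SNU13 and KRR1, the genes that moved least with the others, carry both cores too. Whether the number, spacing or binding of the cores has a part in how these genes moved was not tested. The 34 genes with both cores had a median log2 difference of −0.91 between Sc[Sp] and ScNI, the 6 with PAC alone −0.95 and the 2 with neither −0.38. Among other gene groups, 71.1% of 38 further 40S assembly genes and 78.7% of 61 60S assembly genes held both cores, against 0 of 56 40S ribosomal protein genes.

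**Figure D3:**
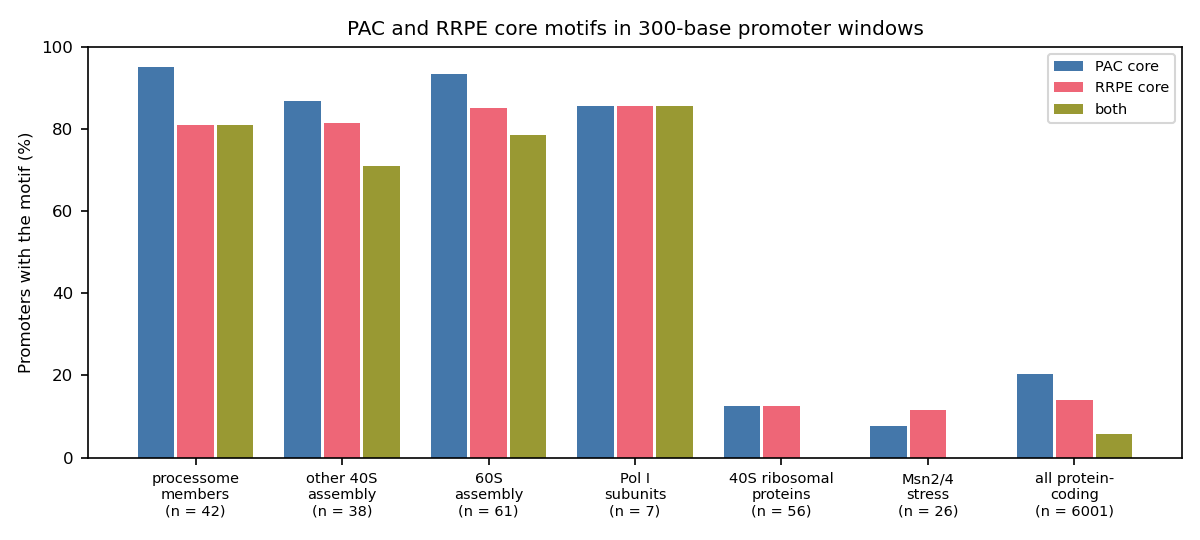
Bars give the percentage of 300-base promoter windows with the PAC core, the RRPE core or both, for 7 groups of genes with their number under each. The 42 processome genes reach 95.2% for PAC against 20.4% of all protein-coding genes.

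Among the nucleolin and snoRNP proteins, NSR1 (YGR159C) encodes the yeast nucleolin, an RNA-binding protein of the nucleolus. NSR1 stood at 7004, 6876 and 8067 normalised counts in replicates 1, 2 and 3 of ScNI, at 4276, 4152 and 4561 in Sc[Ca] and at 3089, 3511 and 3173 in Sc[Sp]. Normalised NSR1 counts were 7540.4, 4055 and 13971 in Sc[At], 6201, 15229.9 and 15409 in N2 and 15677, 15023 and 9142 in Ca. NSR1 was at 6805, 6674 and 5320.3 in the diploid Sc/Sc and at 11216, 12295 and 11235 in N2/Ca. Sc[Sp] and Sc[Ca] lay below every wild-type library, Sc[At] and N2 lay on both sides, and every Ca library lay above. NSR1 fell in Sc[Sp], with a log2 difference from ScNI of −1.17 (SE 0.38, adjusted p = 0.041), limma. Its haploid differences in N2 and Ca missed the threshold, at 0.64 (SE 0.38, adjusted p = 0.22) and 0.82 (SE 0.38, adjusted p = 0.11) by limma. RRP9 (YPR137W) encodes the U3-specific protein of the U3 snoRNP. RRP9 stood at 843, 726 and 855 normalised counts in replicates 1, 2 and 3 of ScNI, at 679, 666 and 720.3 in Sc[Ca] and at 393, 361 and 519 in Sc[Sp]. Normalised RRP9 counts were 841, 692 and 1122 in Sc[At], 966, 1691 and 1679 in N2 and 1764, 1652 and 1142 in Ca. RRP9 was at 1463, 1425 and 1059 in the diploid Sc/Sc and at 1085, 1242 and 1417 in N2/Ca. All N2 and Ca libraries lay above all ScNI libraries, and all Sc[Sp] libraries lay below them. RRP9 fell in Sc[Sp] (log2 −0.94, SE 0.23, adjusted p = 0.012, limma) and rose in N2 (log2 0.80, SE 0.23, adjusted p = 0.018) and Ca (log2 0.89, SE 0.23, adjusted p = 0.010). Of the core box C/D proteins, NOP58 (YOR310C) fell in Sc[Sp] (log2 −0.62, SE 0.21, adjusted p = 0.045, limma), while NOP1 was at −0.54 and NOP56 at −0.44 without passing. NOP1 encodes the methyltransferase fibrillarin. SNU13 was at 3718, 4034 and 4044 in Sc[Sp] against 4029, 3796 and 3973 in ScNI, with overlapping groups and a log2 difference of 0.00.

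UtpA is the subcomplex that binds the 5′ end of the ribosomal RNA precursor first, and its gene with the smallest F test p-value was UTP9 (YHR196W). UTP9 stood at 956, 917 and 984 normalised counts in replicates 1, 2 and 3 of ScNI, at 707, 660.2 and 755 in Sc[Ca] and at 459, 407 and 528 in Sc[Sp]. Normalised UTP9 counts were 903, 719 and 1369 in Sc[At], 976, 1983 and 1994 in N2 and 2141, 2093 and 1295 in Ca. UTP9 was at 1574, 971 and 1474 in the diploid Sc/Sc and at 1308, 1445 and 1545 in N2/Ca. Sc[Ca] and Sc[Sp] did not overlap ScNI, and all Ca libraries lay above it. N2 replicate 1 lay within the wild-type range. UTP9 fell in Sc[Sp] (log2 −1.04, SE 0.27, adjusted p = 0.016, limma) and rose in Ca (log2 0.92, SE 0.27, adjusted p = 0.020). The N2 difference of 0.72 (SE 0.27, adjusted p = 0.057) did not pass. The other 5, UTP4 (YDR324C), UTP5 (YDR398W), UTP8 (YGR128C), UTP10 (YJL109C) and NAN1 (YPL126W), had Sc[Sp] differences between −1.14 and −0.86.

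UtpB is a scaffold subcomplex built largely of WD-repeat proteins around Pwp2, and it contacts both the U3 snoRNP and the precursor. Its example is UTP18 (YJL069C). UTP18 stood at 601, 535 and 653 normalised counts in replicates 1, 2 and 3 of ScNI, at 459.7, 417 and 405 in Sc[Ca] and at 342, 348 and 341 in Sc[Sp]. Normalised UTP18 counts were 652, 538 and 969 in Sc[At], 708, 1331 and 1445 in N2 and 1505, 1388 and 1046 in Ca. UTP18 was at 1374, 1218 and 1159 in the diploid Sc/Sc and at 872, 1076 and 1090.0 in N2/Ca. Each haploid strain other than Sc[At] stood clear of ScNI, Sc[Ca] and Sc[Sp] below it and N2 and Ca above it. In the diploids, all 3 N2/Ca values lay below all 3 Sc/Sc values. UTP18 fell in Sc[Sp] (log2 −0.79, SE 0.24, adjusted p = 0.031, limma) and rose in N2 (log2 0.90, SE 0.24, adjusted p = 0.013) and Ca (log2 1.13, SE 0.24, adjusted p = 0.0043), and the diploid difference of −0.31 (SE 0.13, adjusted p = 0.13) did not pass. The other UtpB genes, PWP2 (YCR057C), DIP2 (YLR129W), UTP6 (YDR449C), UTP13 (YLR222C) and UTP21 (YLR409C), had Sc[Sp] differences between −1.14 and −0.95.

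The Mpp10 complex joins Mpp10 with Imp3 and Imp4, which help the U3 RNA to pair with the precursor. IMP3 (YHR148W) was its gene with the smallest F test p-value. IMP3 stood at 395, 327 and 404 normalised counts in replicates 1, 2 and 3 of ScNI, at 252, 268 and 269.9 in Sc[Ca] and at 222, 204 and 212 in Sc[Sp]. Normalised IMP3 counts were 403, 296 and 648 in Sc[At], 415, 910.3 and 895 in N2 and 827, 859 and 543 in Ca. IMP3 was at 653, 547 and 568 in the diploid Sc/Sc and at 506, 596 and 544 in N2/Ca. All Sc[Ca] and Sc[Sp] libraries lay below ScNI and all N2 and Ca libraries above it. IMP3 rose in N2 (log2 0.90, SE 0.29, adjusted p = 0.031, limma) and Ca (log2 0.96, SE 0.29, adjusted p = 0.022), but its Sc[Sp] difference of −0.81 (SE 0.29, adjusted p = 0.058) missed the threshold. IMP4 (YNL075W) and MPP10 (YJR002W) fell in Sc[Sp], at log2 −0.87 (SE 0.28) and −0.74 (SE 0.22).

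Among the enzymes, RCL1 (YOL010W) encodes the cyclase-like partner of the GTPase Bms1. RCL1 stood at 457, 438 and 501 normalised counts in replicates 1, 2 and 3 of ScNI, at 364, 336 and 371 in Sc[Ca] and at 229, 203 and 293 in Sc[Sp]. Normalised RCL1 counts were 599, 528 and 850.3 in Sc[At], 627, 1374 and 1470.4 in N2 and 1466, 1369 and 942 in Ca. RCL1 was at 801, 805 and 638 in the diploid Sc/Sc and at 664, 862 and 856 in N2/Ca. RCL1 had no overlap with ScNI in any other haploid strain, below it in Sc[Ca] and Sc[Sp] and above it in Sc[At], N2 and Ca. It fell in Sc[Sp] (log2 −0.96, SE 0.27, adjusted p = 0.024, limma) and rose in N2 (log2 1.22, SE 0.27, adjusted p = 0.0053) and Ca (log2 1.41, SE 0.27, adjusted p = 0.0025), while Sc[At] did not pass at 0.47 (SE 0.27, adjusted p = 0.26). BMS1 (YPL217C), KRE33 (YNL132W), the RNA acetyltransferase, and EMG1 (YLR186W), a ribosomal RNA methyltransferase, fell in Sc[Sp], at log2 −0.87, −0.93 and −0.51 (SE 0.26, 0.25 and 0.17).

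The 4 RNA helicases unwind RNA duplexes within the particle, and DHR2 among them had the largest fitted difference of the 42 genes in both Sc[Sp] and Ca. DBP8 (YHR169W), a DEAD-box helicase, had the smallest F test p-value of the 4. DBP8 stood at 396, 382 and 467 normalised counts in replicates 1, 2 and 3 of ScNI, at 279, 298 and 338 in Sc[Ca] and at 136, 204 and 205 in Sc[Sp]. Normalised DBP8 counts were 393, 348 and 616 in Sc[At], 448, 905 and 819 in N2 and 1018, 883 and 676 in Ca. DBP8 was at 918, 887 and 786 in the diploid Sc/Sc and at 524, 720.5 and 708 in N2/Ca. Sc[Ca] and Sc[Sp] lay below ScNI, and Ca and N2 replicates 2 and 3 lay above it. N2 replicate 1 fell within the wild-type range, and the diploid N2/Ca values lay below those of Sc/Sc. DBP8 fell in Sc[Sp] (log2 −1.21, SE 0.26, adjusted p = 0.0072, limma) and rose in Ca (log2 1.03, SE 0.26, adjusted p = 0.010), and the diploid difference was −0.42 (SE 0.15, adjusted p = 0.093). DHR2 (YKL078W), a DEAH-box helicase with the lowest level per kilobase, was at 109, 99.6 and 113 in Sc[Sp] against 343, 313 and 382 in ScNI and 1538, 1065 and 548 in Ca. It fell in Sc[Sp], at log2 −1.68 (SE 0.44, limma adjusted p = 0.018) and rose in Ca by 1.48 (SE 0.44, limma adjusted p = 0.022). DHR2 and UTP11 lie on chromosome XI, whose median gene was at log2 0.54 in Ca replicate 1. Without that library the Ca difference was 1.14 for DHR2 and 0.60 for UTP11, neither of which passed (limma adjusted p = 0.10 and 0.15). In that fit 10 of the 42 genes rose, where 9.68% of all genes did, against 27 and 16.0% with all libraries. Against Sc[Ca], DHR2 and UTP11 passed without that library, at log2 1.64 and 0.99 (limma adjusted p = 0.019 each). The part of chromosome XI in the differences of these genes was not tested. ROK1 (YGL171W) and RRP3 (YHR065C), both DEAD-box helicases, fell in Sc[Sp], at log2 −0.95 and −0.60 (SE 0.29 and 0.18).

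Of the 13 other factors, LCP5 (YER127W), which encodes a U3-associated protein, had the smallest F test p-value of all 42 genes (F = 24.0, adjusted p = 8.4e-05, limma). LCP5 stood at 434, 456 and 481 normalised counts in replicates 1, 2 and 3 of ScNI, at 328, 365 and 315 in Sc[Ca] and at 256, 263 and 252 in Sc[Sp]. Normalised LCP5 counts were 533, 482 and 857 in Sc[At], 587, 1173 and 1224 in N2 and 1151, 1094 and 963 in Ca. LCP5 was at 888, 819 and 951 in the diploid Sc/Sc and at 601, 757 and 743 in N2/Ca. Its haploid order was the same as that of RCL1, with Sc[Sp] lowest, Sc[Ca] next and N2 and Ca above ScNI in every library. LCP5 fell in Sc[Sp] (log2 −0.83, SE 0.23, adjusted p = 0.024, limma) and rose in N2 (log2 1.05, SE 0.23, adjusted p = 0.0053) and Ca (log2 1.22, SE 0.23, adjusted p = 0.0025). ENP1 (YBR247C), RRP12 (YPL012W) and BFR2 (YDR299W) fell in Sc[Sp], at log2 −1.14, −1.09 and −1.01 (SE 0.31, 0.32 and 0.27), and rose in Ca by 1.18, 1.15 and 1.279 (SE 0.31, 0.32 and 0.27). Bfr2 works in a module with Lcp5 and Enp2, and Enp1 and Rrp12 also act in late steps of 40S maturation and export. UTP20 (YBL004W), UTP7 (YER082C), ENP2 (YGR145W), UTP11 (YKL099C) and UTP23 (YOR004W) also fell in Sc[Sp], at log2 −0.75, −0.68, −0.97, −0.87 and −0.90 in that order. SOF1 (YLL011W), NOC4 (YPR144C), UTP22 (YGR090W) and KRR1 did not pass, at −0.74, −0.70, −0.25 and −0.18. Noc4 is a partner of Nop14 and Utp22 of Rrp7. KRR1, a KH-domain protein of the particle, was at 2187, 2031 and 2347 in Sc[Sp] against 2371, 2538 and 2499 in ScNI, so that every Sc[Sp] library lay below the wild type by a small margin.

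Among the 6 haploid strains 40 of the 42 genes differed by the limma F test, against 60.6% of all 5808 genes tested. The exceptions were NOP56 (adjusted p = 0.055) and KRR1 (adjusted p = 0.17).

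Against ScNI, 34 of 42 genes fell in Sc[Sp] and none rose (limma), where 10.9% of all genes tested fell. The 42 differences had a median of −0.91 and all were below 0, while the median of all genes was −0.02. All 3 Sc[Sp] libraries lay below all 3 of ScNI in 41 of 42 genes, as in 30.5% of all genes. All 6 UtpA, all 6 UtpB, all 4 enzyme and all 4 helicase genes fell, and 3 of 6 nucleolin and snoRNP genes, 2 of 3 Mpp10 complex genes and 9 of 13 other factors. NAN1 had the smallest p in UtpA (log2 −1.06, SE 0.25, adjusted p = 0.010, limma) and UTP21 the largest difference in UtpB (log2 −1.14, SE 0.28, adjusted p = 0.014). The count of falling genes changed when a library was left out: it was 11, 13 and 2 without ScNI replicate 1, 2 or 3, and 11, 3 and 16 without Sc[Sp] replicate 1, 2 or 3. The share of all genes called lower in those fits was 5.18%, 4.46% and 3.10%, and 5.87%, 3.46% and 6.66%. Without ScNI replicate 3 the members' share was 4.76%, near that background, and without Sc[Sp] replicate 2 it was 7.14%. The median held between −0.93 and −0.84 in those fits. With the 12 MATa-pattern libraries alone 0 of 42 passed, with 0.207% of all genes, at a median of −0.89. With the replicate number as a block 30 passed, with 9.57% of all genes. Other settings gave more: 35 with edgeR and 38 with DESeq2, where 11.6% and 14.8% of all genes fell. The fit of the 6 libraries of ScNI and Sc[Sp] gave 40, with 24.0% of all genes. Without the N2 and Ca libraries it was 39, with 21.9% of all genes.

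In Sc[Ca] 0 of 42 genes passed in the fit of all 18 libraries (limma; edgeR 0, DESeq2 0, 1 at an unadjusted p below 0.05), where 0.0172% of all genes were lower. All 42 differences lay below 0 with a median of −0.39, against 49.9% of all genes below 0. In 40 of 42 genes all 3 Sc[Ca] libraries lay below all 3 of ScNI, as in 19.1% of all genes. A limma fit of those 6 libraries alone called 38 of 42 lower, with 8.74% of its 5777 genes lower. In that fit NSR1 had the smallest adjusted p (log2 −0.75, adjusted p = 0.00040), followed by SNU13 (−0.41, adjusted p = 0.0013) and UTP7 (−0.37, adjusted p = 0.0020). RRP12 was at −0.70 (adjusted p = 0.0023), and NOP1, RRP9, EMG1 and UTP22 did not pass. The 6-library fit takes its spread from these 2 strains, where the 18-library fit pools it over 6.

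In Sc[At] 0 of 42 genes passed (limma; edgeR 0, DESeq2 0, and 0 at an unadjusted p below 0.05), where 15.3% of all genes passed in either direction. The 42 differences had a median of 0.09, between −0.19 for NOP56 and 0.47 for RCL1, and 12 lay below 0, namely NOP1, NOP56, NOP58, UTP4, UTP8, NAN1, MPP10, BMS1, ROK1, KRR1, UTP11 and UTP23. Without Sc[At] replicate 3 the median was −0.15 and without replicate 2 it was 0.27. Set directly against each other, Sc[Sp] was lower than Sc[At] in 32 of 42 genes (limma), as in 8.21% of all genes, with a median of −0.999. RCL1 had the smallest p (log2 −1.43, SE 0.27, adjusted p = 0.0083) and DHR2 the largest difference (log2 −1.87, SE 0.44, adjusted p = 0.017), while SNU13 (−0.03) and KRR1 (−0.02) did not pass. That count was 4 without Sc[At] replicate 3, 11, 17 and 18 without Sc[Sp] replicates 3, 2 and 1, and 21 without Sc[At] replicate 1. All genes were called at 1.31%, at 2.26%, 3.48% and 3.87%, and at 3.75% in those fits. In the 12 MATa-pattern libraries it was 0, with 0.0861% of all genes and a median of −1.17.

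In N2 21 of 42 genes rose and none fell (limma), where 16.5% of all genes rose, and the median was 0.70. In 17 of 42 genes all N2 libraries lay above all of ScNI, as in 24.6% of all genes. RCL1 had the largest difference, and SOF1 had the largest among the other factors (log2 1.08, SE 0.26, adjusted p = 0.0077, limma). Of the 6 nucleolin and snoRNP genes 1 rose, of UtpA 1 of 6, of UtpB 4 of 6, of the Mpp10 complex 2 of 3, of the enzymes and of the helicases 2 of 4 each, and of the other factors 9 of 13. Without N2 replicate 1 the count was 37, with a median of 1.05, while 21.5% of all genes rose, and without N2 replicate 2 or 3 it was 3. Without ScNI replicates 1, 2 and 3 it was 7, 4 and 9, and in the fit of 6 libraries it was 7. These counts were close to the share of all genes in 4 of those fits: 7.14% of members against 8.45% and 8.47% of all genes without N2 replicate 2 or 3, 9.52% against 10.2% without ScNI replicate 2, and 16.7% against 17.1% in the 6 libraries. Without ScNI replicates 1 and 3 the shares were 16.7% against 11.5% and 21.4% against 11.2%. In the 12 MATa-pattern libraries 0 of 42 passed, with 1.29% of all genes, at a median of 0.47.

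Ca showed 27 of 42 genes higher than ScNI and none lower (limma), where 16.0% of all genes rose, with a median of 0.82. In 36 of 42 genes all Ca libraries lay above all ScNI libraries, as in 19.6% of all genes. All 6 UtpB genes rose, with 3 of 6 of UtpA, 2 of 3 of the Mpp10 complex, 3 of 4 enzymes, 3 of 4 helicases, 9 of 13 other factors and 1 of 6 nucleolin and snoRNP genes. BFR2 rose by log2 1.279 (SE 0.27, limma adjusted p = 0.0042) and UTP6 by 1.16 (SE 0.30, limma adjusted p = 0.010). Leaving out Ca replicate 1 or 2 gave 10 or 14 rising genes, where 9.68% and 13.1% of all genes rose. Leaving out ScNI replicate 1 or 2 gave 12 or 13, where 10.2% and 9.85% of all genes rose. The 12 MATa-pattern libraries gave 0, with 2.93% of all genes, at a median of 0.74. Between Ca and N2 themselves 0 of 42 differed (limma; edgeR 0, DESeq2 0, 0 at an unadjusted p below 0.05), where 0.517% of all genes did, and the median of 0.10 turned to −0.21 without N2 replicate 1. DHR2 had the largest difference between them (log2 0.47, SE 0.44, adjusted p = 0.82, limma), and NOP1, NOP56, NOP58, UTP22 and UTP23 lay below 0.

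Of the 9 pairwise comparisons, Ca against Sc[Ca] had the most called genes, as 38 of 42 were higher in Ca (limma), where 20.6% of all genes were, with a median of 1.22. DHR2 had the largest difference (log2 1.97, SE 0.44, adjusted p = 0.0032) and LCP5 the smallest p (log2 1.67, SE 0.23, adjusted p = 0.00022). RRP12 rose by log2 1.85 (SE 0.32), RCL1 by 1.79 (SE 0.27) and NSR1 by 1.58 (SE 0.38). NOP1, NOP56, NOP58 and KRR1 did not pass. This count was 35 to 42 when any of the 6 libraries was left out and 17 in the 12 MATa-pattern libraries, with 15.1% to 27.4% and 8.18% of all genes called. The 6 genes with the highest level per kilobase had a median difference of 0.52, against 1.24 for the other 36, and in Sc[Sp] against ScNI the 2 medians were −0.49 and −0.93.

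**Figure D4:**
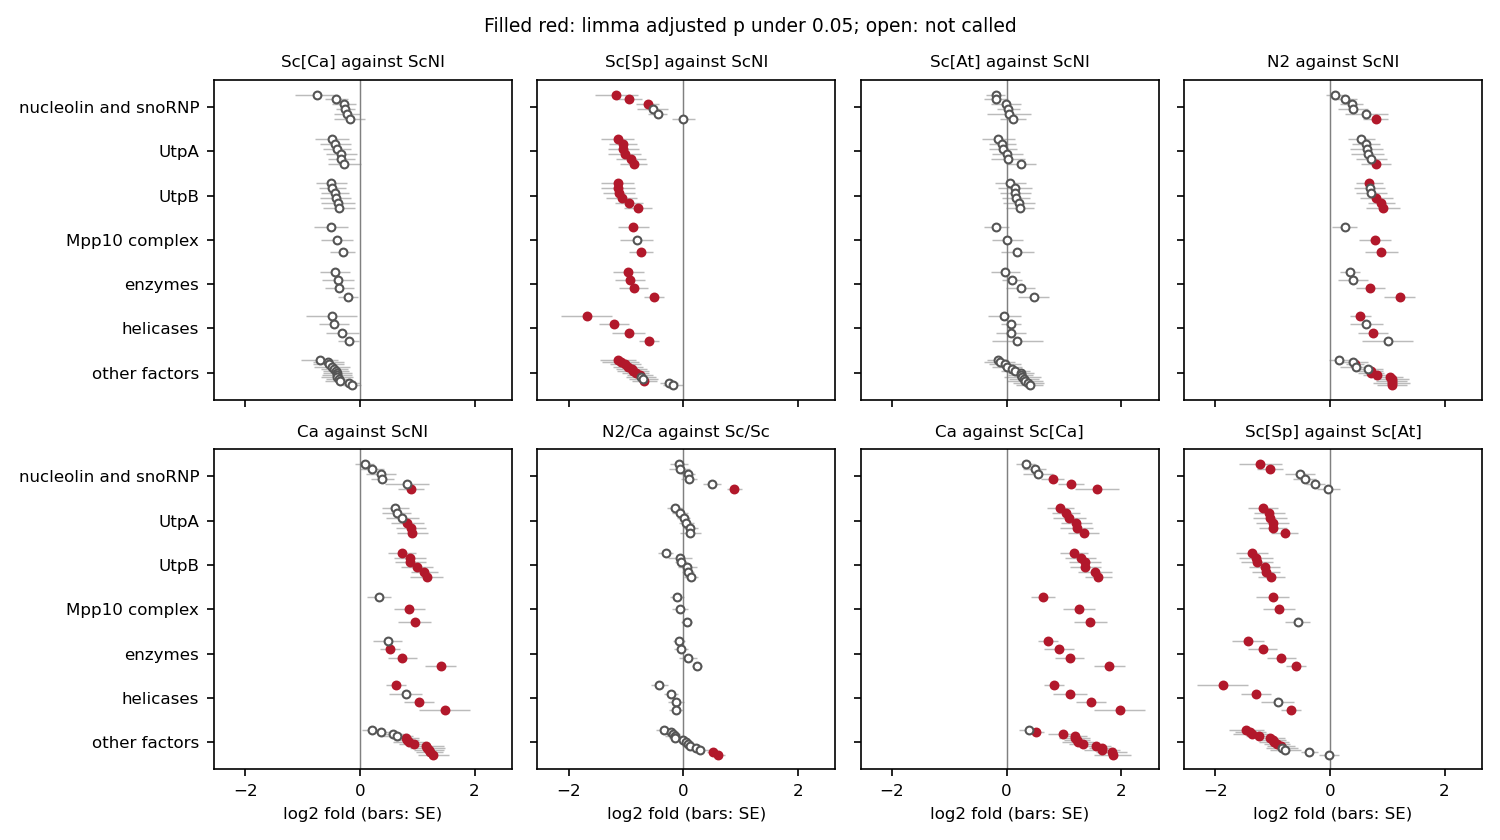
Each point is the fitted log2 difference of 1 gene with its standard error, in 8 panels by comparison and with role groups along the y axis. Filled points passed an adjusted p of 0.05 by limma, as 38 of 42 did between Ca and Sc[Ca] and 0 of 42 between Sc[Ca] and ScNI.

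The library medians of the diploid N2/Ca, −0.01, 0.04 and 0.02, lay within those of its wild type Sc/Sc, which were 0.13, −0.11 and −0.06. The summed share of normalised counts did not overlap between the diploids. The 42 genes made up 0.914% ± 0.0474 (SD, n = 3) in N2/Ca, with a lowest library of 0.860%. In Sc/Sc they made up 0.732% ± 0.0700, with a highest library of 0.813%. Summed normalised counts were 110226 to 113382 in N2/Ca and 96069 to 108204 in Sc/Sc, without overlap. Without NSR1, the member with the largest log2 rise in N2/Ca, the summed counts overlapped, at 98991 to 101087 and 89396 to 101399. The share without NSR1 was 0.772% to 0.848% against 0.637% to 0.762%. The share also depends on the total over all genes tested. That total was lower in N2/Ca, at 11667000 to 12863400 normalised counts against 13313600 to 14819000 in Sc/Sc. A higher share is thus not by itself a rise of the 42 genes. Levels were not compared across ploidy, because the 2 tables were normalised separately. In N2/Ca 3 of 42 genes rose (limma), where 8.59% of all genes did, and 0 fell (edgeR 0, DESeq2 0, 3 at an unadjusted p below 0.05). NSR1 rose by log2 0.89 (SE 0.13, limma adjusted p = 0.0043), from 6266 ± 822 to 11582 ± 618 normalised counts (SD, n = 3), and its groups did not overlap. UTP20, a large repeat protein of the particle, was at 2013, 1702 and 2205 in Sc/Sc and 2959.9, 2956 and 3032 in N2/Ca. No UTP20 or SOF1 value overlapped between the diploids. UTP20 rose by log2 0.60 (SE 0.12, limma adjusted p = 0.014). SOF1, a WD-repeat protein, was at 763, 695 and 639 in Sc/Sc and at 993, 1008 and 1012 in N2/Ca, and it rose by log2 0.53 (SE 0.11, limma adjusted p = 0.018). NSR1 passed whichever library was left out (adjusted p at most 0.025), while UTP20 and SOF1 missed the threshold without any 1 of the N2/Ca libraries (adjusted p = 0.052 to 0.095). Without Sc/Sc replicate 3, 5 genes were higher, where 12.6% of all genes were, and 1 was lower, where 11.2% of all genes were. The helicase genes were all below 0 here, at −0.42 for DBP8 and −0.12 to −0.21 for the others, without passing.

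Values of 2 other features stand beside these medians. Chromosome XIII holds none of the 42, and its median gene was at log2 0.51, 0.93 and 0.92 against ScNI in the 3 N2 libraries, and in Ca at 0.87, 0.89 and −0.01. In the Sc[Ca], Sc[Sp] and Sc[At] libraries it stayed between −0.03 and 0.01, while the members' medians there ran from −0.94 to 0.57. The N2 and Ca libraries with the lowest chromosome XIII medians, N2 replicate 1 and Ca replicate 3, were also those with the lowest medians of the 42 genes (0.06 and 0.42). Chromosome VI behaved alike, at 0.50, 0.92 and 0.89 in N2 and 0.88, 0.86 and 0.05 in Ca. Size factors taken off chromosomes VI, XI and XIII gave 21 rising genes in N2 and 28 in Ca, where 18.4% and 18.1% of all genes rose. The other feature is a list of 26 general stress genes driven by Msn2 and Msn4, of which 8 lie on chromosomes VI and XIII and were set aside after their values were seen. The library median of the other 18 was 0.68, 0.86 and 0.50 in Sc[Sp], 0.33, 0.41 and 0.27 in Sc[Ca], and 0.51, 0.86 and −0.64 in Sc[At]. In N2 the 18 genes were at 0.57, −0.17 and −0.27, and in Ca at −0.29, −0.51 and −0.49. All 26 together were at 0.84, 0.21 and 0.16 in N2 and at 0.06, −0.32 and −0.44 in Ca. In Sc[At] and N2 the library with the highest stress median was the one with the lowest processome median, whereas in Ca the same library, replicate 1, was highest in both. The part of either feature in the differences of the 42 genes was not tested.

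**Figure D5:**
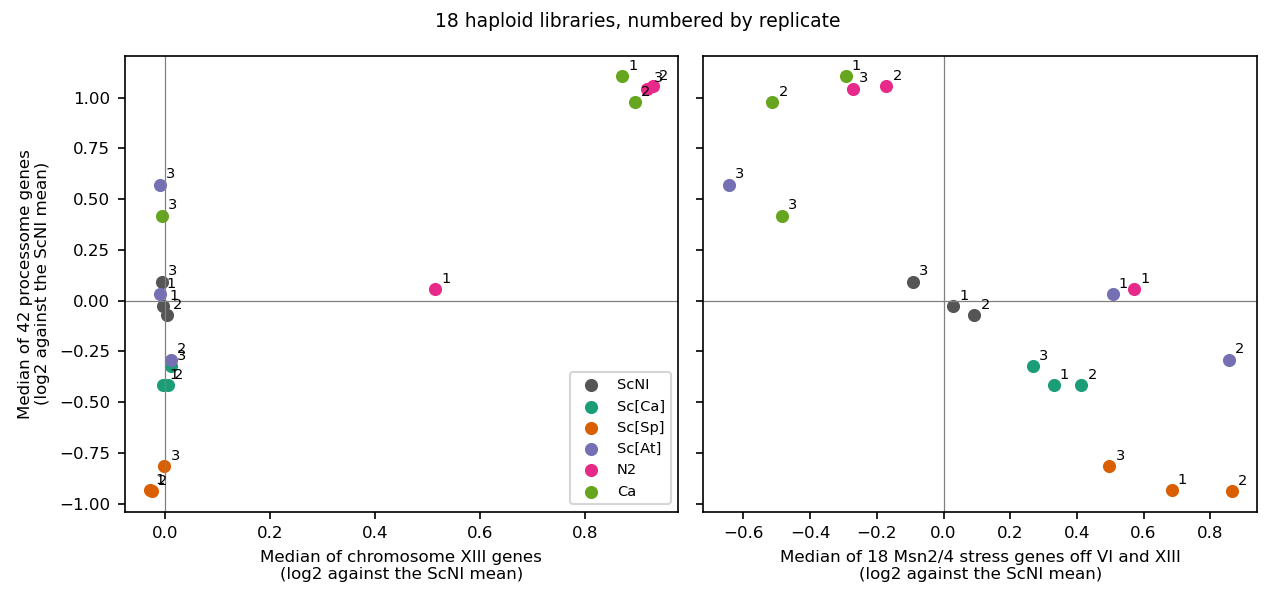
Points are the 18 haploid libraries, numbered by replicate, with the median of the 42 genes on the y axis against the median of chromosome XIII genes (left) or of the 18 stress genes off chromosomes VI and XIII (right), all log2 differences from the ScNI mean. N2 replicate 1 and Ca replicate 3 stand apart from the other libraries of their strains in the left panel.

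Other ribosome-making genes, listed by role with earlier results of these data known, were counted in the same way. Of all genes tested, 10.9% fell in Sc[Sp] and 20.6% were higher in Ca than in Sc[Ca]. Of 38 further 40S assembly genes, some of them on chromosome XIII, 19 fell in Sc[Sp] (median −0.75) and 36 were higher in Ca than in Sc[Ca] (median 1.09). Of 61 60S assembly genes, some of them on chromosomes VI and XIII, 38 fell in Sc[Sp] (median −0.82). In Ca 58 of these 61 were higher than in Sc[Ca] (median 1.21). The 7 RNA polymerase I genes had medians of −0.79 and 0.77 in these comparisons, with 5 and 7 called. The 56 genes of 40S ribosomal proteins, some of them on chromosome XIII, had a median of −0.06 in Sc[Sp] with 1 lower. Between Ca and Sc[Ca] their median was −0.11 with 1 higher. Levels of these paralogous ribosomal protein genes are uncertain where reads are shared between copies. In Sc[At], where none of the 42 processome genes passed, 22 of the 56 were lower (median −0.35), as were 6.82% of all genes. In N2/Ca 1 of 56 was lower (median −0.33) and 8 of the 61 60S assembly genes were higher (median 0.18). None of the 38 further 40S assembly genes passed (median 0.01). Of all genes, 5.76% were lower and 8.59% higher in N2/Ca.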

How the data were processed

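The values are DESeq2-normalised gene counts, deposited by the authors as a signal that is no longer whole-numbered, in 1 table of 18 haploid and 1 of 6 diploid libraries. Reads were trimmed with Trimmomatic 0.39, aligned with HISAT2 2.2.1 to build R64 and normalised with DESeq2 1.28.0, per the submitters' processing notes. Neither these notes nor the labels name the counting tool, the annotation or the strand setting. The 2 tables were normalised separately and never mixed. Every column was used (0 left out), and the columns of the diploid table with an unexplained prefix were taken as N2/Ca because no other strain fits them.

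Genes with a mean of at least 10 were tested with limma 3.58.1 (R 4.3.3) on log2(value + 1), which understates changes of low genes. The 18 haploid libraries shared 1 fit, without a replicate block, and the 6 diploid libraries another, with an F test over the haploid strains and Benjamini-Hochberg adjustment over all genes (threshold 0.05). Reads for the introduced actins were left out. Dividing each column by the step between its values gave whole reads for 100% of values (tolerance 0.001 reads), which were used for depth and for edgeR 4.0.16 and DESeq2 1.42.0. The limma fit was checked on simulated counts with the same spread in every strain and independent genes. That check does not cover strains of unequal spread.

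The 42 genes and all lists were chosen with earlier results of these data known. Within each comparison and role group, the rule named the gene with the smallest adjusted p and the one with the largest difference. Values in every library were given for the gene of each role group with the smallest F test p-value and for NSR1. Samples with the same replicate number were compared for shared deviations across genes. In Sc[Ca], Sc[Sp], Sc[At] and N2 against ScNI and in Sc[Sp] against Sc[At] every pair correlated at 0.305 or more. In the other 4 comparisons the lowest correlation was 0.08 or less. Between Ca and N2 the values were −0.28, 0.69 and −0.31 for replicates 1, 2 and 3. Replicate 2 had the MATalpha pattern in every haploid strain, and the genes of mating type were kept in these correlations. They therefore cannot show whether the numbers pair the libraries beyond mating type, and no other evidence of pairing was used. Promoter windows were read from the RefSeq R64 genome. Alternatives covered the pseudocount, the filter, the scaling, the tool, the block, the libraries in the fit and each replicate left out.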

Additional observations from a re-analysis of the deposited data

How the results depend on the processing

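With the replicate number as a block, the called genes were 0 in Sc[Ca], 30 in Sc[Sp], 0 in Sc[At], 16 in N2 and 28 in Sc[Sp] against Sc[At]. They were 27 in Ca, 38 in Ca against Sc[Ca] and 3 in N2/Ca, and no count moved by over 1.5 times. In fits of the 6 compared libraries alone, 38 genes were lower in Sc[Ca] and 7 higher in N2, where 8.74% and 17.1% of all genes were. Without the N2 and Ca libraries, 1 gene (2.38%) was higher in Sc[At], where 16.3% of all genes were. With DESeq2, 5 genes (11.9%) were higher in N2/Ca, where 12.4% of all genes were. The median of Sc[Sp] against Sc[At] was −1.06 with DESeq2 (edgeR −1.05). In the MATa-pattern libraries, an alternative chosen after seeing the data, the counts were 0 lower in Sc[Sp], 0 higher in N2, 0 higher in Ca, 17 higher in Ca against Sc[Ca] and 0 lower in Sc[Sp] against Sc[At], whose median was −1.17. In that order 0.207%, 1.29%, 2.93%, 8.18% and 0.0861% of all genes were called. Fewer libraries enter each of these fits, and no other cause was tested.

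Leaving out 1 library gave 2 to 16 genes lower in Sc[Sp], 3 to 37 higher in N2, 10 to 38 higher in Ca, 35 to 42 higher in Ca against Sc[Ca] and 4 to 38 lower in Sc[Sp] against Sc[At]. In that order 3.10% to 6.66%, 8.45% to 21.5%, 9.68% to 23.7%, 15.1% to 27.4% and 1.31% to 9.23% of all genes were called. N2/Ca had 1 to 5 higher and 0 to 1 lower, where 3.06% to 12.6% and 1.59% to 11.2% of all genes were. The medians ranged from −0.43 to −0.35 in Sc[Ca], −0.93 to −0.84 in Sc[Sp], −0.15 to 0.27 in Sc[At], 0.52 to 1.05 in N2, 0.71 to 1.05 in Ca, −0.21 to 0.30 in Ca against N2, −1.21 to −0.74 in Sc[Sp] against Sc[At] and −0.045 to 0.073 in N2/Ca. Size factors off chromosomes VI, XI and XIII, also chosen after seeing the data, moved no count by over 1.5 times. Over single genes and alternatives, 5045 results kept their side of the threshold, 569 lost it and 140 gained it. Of the results that passed in either fit, 0 changed direction. Results that passed in neither fit are among the 5045 even where their sign changed. Each gene had 95 reads or more in every library; which of counting error and spread between libraries limits a comparison was not tested.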

Other observations

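The U3 snoRNA, the RNA core of the particle, is encoded by the near-identical genes snR17a and snR17b. The gene snR17a was at 101, 163 and 289 normalised counts in Sc/Sc and at 39.2, 42.5 and 27.1 in N2/Ca, with no overlap. The gene snR17b was at 53.8, 60.1 and 115 in Sc/Sc and at 45.1, 75.3 and 80.4 in N2/Ca, and these ranges overlapped. In the haploid libraries snR17a lay between 23.76 and 64.51 and snR17b between 31.2 and 98.4. These levels are uncertain, because poly(A) selection leaves out most snoRNA and reads can be shared between the copies.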
